A study of Mus musculus with 14 samples.

Results

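The 10 genes described here lie on distal mouse chromosome 1 and are Npl, Aldh9a1, Fmo1, Fam20b, Klhl20, Zbtb37, Ppp1r12b, Ctse, Chil1 and Ikbke. They are 10 of the 42396 genes listed in both count tables, and they were chosen by their low p-values between Atf3-/- and Atf3+/+ hearts. In edgeR these p-values lay between 2.87e-05 and 0.0016, which placed the 10 genes at ranks 3 to 84 of the 15592 genes tested. The differences between the genotypes are therefore given as a description and carry no test of their own. A further 11 genes within 60 Mb of Atf3 ranked at 84 or better and are not among the 10, and the first of the 401 tested genes of that stretch beyond rank 84 was Cd247, at rank 108 with a p of 0.00201. The AAV experiment was not used for the choice and was tested.

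Bulk RNA-seq was performed on whole hearts of 14 female mice, all of them FS6KD, meaning that Ndufs6, a subunit gene of respiratory complex I, was knocked down. For the knockout experiment, hearts of 12 weeks came from 4 mice with intact Atf3 (Atf3+/+FS6KD) and from 4 with both copies deleted (Atf3-/-FS6KD). For the AAV experiment, 3 hearts carry the label MyoAAV2-shCtrl and another 3 the label MyoAAV2-shAtf3. A muscle-directed adeno-associated virus had delivered a control hairpin RNA or one against Atf3 to newborn FS6KD mice, and the series' design note does not make clear whether the interval of 12 weeks is their age. The Ndufs6 line descends from sperm of a mixed C57BL/6J and 129/Ola background. The Atf3 deletion was made by CRISPR-Cas9 in fertilised FS6KD eggs and takes out several exons, so that the deletion and whatever stretch of chromosome 1 was inherited with it cannot be told apart in this design. The AAV experiment used no Atf3 deletion. Columns of the AAV table are named for the opposite group to the one their sample labels give, so hearts are described by label, and each direction given for them would turn if the labels were exchanged.

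Total estimated counts per library ranged from 33914931 to 134920825 in the knockout experiment, where replicates 3 and 4 of both genotypes were the deeper ones, and from 30085432 to 40534913 in the AAV experiment. Levels are given as CPM, the counts of a gene scaled to the size of its library, after TMM normalization, except for Ctse in the AAV libraries, which stands before it. Ndufs6 lay between 2.33 and 3.78 CPM in the knockout experiment and between 2.41 and 3.79 CPM in the AAV experiment. With replicates 1 to 4 in order, Atf3 read 25.7, 6.89, 6.90 and 6.35 CPM in Atf3+/+FS6KD hearts and 25.5, 37.6, 22.7 and 14.3 CPM in Atf3-/-FS6KD hearts. The counts do not separate deleted from remaining exons, so this value does not check the genotype. Atf3 read 10.1, 13.2 and 14.1 CPM under the shCtrl label and 21.2, 12.1 and 16.5 CPM under the shAtf3 label (log2 fold change 0.41, edgeR adjusted p = 0.420), so no lower level of Atf3 was seen in the hearts labelled shAtf3.

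Atf3 encodes a stress-induced transcription factor of the ATF/CREB family that binds DNA as a dimer at cyclic AMP response elements (CRE) and related AP-1 sites. Genes that lie on the same chromosome as an edited gene are inherited together with it, less and less often with growing distance. The 10 genes do not belong to 1 pathway. They comprise metabolic enzymes, regulators of protein turnover, transcription and contraction, and genes known from secretory and immune cells.

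By position in GRCm38, the 10 genes all lay at lower coordinates than Atf3, as did 372 of the 401 genes tested within 60 Mb of it, since Atf3 is close to the end of the chromosome. Ikbke (chr1:131254600-131279601, minus strand), Ctse (chr1:131638314-131675507, plus), Chil1 (chr1:134182156-134190031, plus) and Ppp1r12b (chr1:134754658-134955963, minus) lay 59.9, 59.5, 57 and 56.4 Mb from Atf3, which is at chr1:191170296-191183333. After a gap of 18.7 Mb came Npl (chr1:153503016-153549714, minus) and Fam20b (chr1:156678562-156719095, minus), at 37.7 and 34.5 Mb. Zbtb37 (chr1:161002922-161034864, minus) and Klhl20 (chr1:161088375-161131508, minus) had starts 85.5 kb apart and lay 30.2 and 30.1 Mb from Atf3. Fmo1 (chr1:162829561-162866610, minus) lay at 28.3 Mb and Aldh9a1 (chr1:167349963-167368530, plus) at 23.8 Mb, so that none of the 10 was closer to Atf3 than 23.8 Mb. The 4 genes with higher levels in Atf3-/-FS6KD lay at 37.7 Mb or farther, and of the 6 with lower levels all but Ppp1r12b lay at 34.5 Mb or nearer. This order is that of the 10 picked genes only. Among all tested genes whose genotypes did not overlap, 6 were higher and 5 lower from 130 to 140 Mb. There were 4 higher and 9 lower from 150 to 160 Mb, and 11 higher and 12 lower from 160 to 170 Mb.

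The promoter windows of the 10 genes were searched on both strands for the sites at which Atf3 is known to bind. RefSeq (GRCm38.p6) gave 9 windows of 300 bases for 8 of the genes, each running from 250 bases before the transcription start to 50 bases after it. The full CRE palindrome TGACGTCA occurred in 0 of 9 windows and in 1.79% of the 32851 windows of all genes. The AP-1 sites TGACTCA and TGAGTCA occurred in 0 of 9 windows and in 5.2% of all windows. The short CRE core TGACG, which is also part of the palindrome, occurred in 2 of 9 windows and in 20.8% of all windows. It lay at position -88 of Klhl20, counted from the transcription start, and at position -46 of 1 of the Ppp1r12b windows. Those 2 windows are printed with that core in capitals, beside the windows of Npl and Aldh9a1, the genes that ranked best in either direction, in which none of these letters occurred. Each is read 5′ to 3′ on the strand of its gene, all but Aldh9a1 on the minus strand, and they are shown so that the letters searched for can be seen in place. A match is a description of the letters and not a bound site.
Klhl20, chr1:161131430-161131729: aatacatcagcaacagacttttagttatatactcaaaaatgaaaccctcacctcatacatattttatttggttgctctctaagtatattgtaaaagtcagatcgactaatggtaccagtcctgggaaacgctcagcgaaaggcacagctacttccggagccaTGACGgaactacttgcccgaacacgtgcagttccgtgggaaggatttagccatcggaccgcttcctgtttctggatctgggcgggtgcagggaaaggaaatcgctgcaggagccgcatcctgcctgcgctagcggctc
Ppp1r12b, chr1:134955891-134956190: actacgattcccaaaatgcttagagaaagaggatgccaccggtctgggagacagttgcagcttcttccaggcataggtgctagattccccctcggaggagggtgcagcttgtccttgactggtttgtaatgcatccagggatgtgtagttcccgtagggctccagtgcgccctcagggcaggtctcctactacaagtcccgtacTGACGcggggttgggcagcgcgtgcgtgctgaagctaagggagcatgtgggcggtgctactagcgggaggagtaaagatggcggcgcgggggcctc
Npl, chr1:153549665-153549964: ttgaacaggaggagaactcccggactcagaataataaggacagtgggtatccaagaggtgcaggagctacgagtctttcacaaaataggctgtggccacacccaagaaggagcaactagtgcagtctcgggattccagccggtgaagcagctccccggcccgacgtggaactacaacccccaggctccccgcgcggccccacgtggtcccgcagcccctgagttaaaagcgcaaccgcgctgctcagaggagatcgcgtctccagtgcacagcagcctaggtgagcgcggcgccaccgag
Aldh9a1, chr1:167349741-167350040: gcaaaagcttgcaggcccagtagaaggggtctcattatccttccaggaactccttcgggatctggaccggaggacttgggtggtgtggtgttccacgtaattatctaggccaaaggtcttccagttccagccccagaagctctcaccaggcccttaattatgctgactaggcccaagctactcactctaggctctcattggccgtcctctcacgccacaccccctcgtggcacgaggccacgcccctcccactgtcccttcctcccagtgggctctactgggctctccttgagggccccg

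The 10 genes differed widely in level. Per kilobase of annotated exon, Ppp1r12b was at 35.9 ± 0.696 CPM per kb (SD, n = 4) in Atf3+/+FS6KD, Fam20b at 18.6 ± 0.637, Aldh9a1 at 7.49 ± 0.881 and Fmo1 at 6.14 ± 1.19. Klhl20 was at 1.72 ± 0.129 and Zbtb37 at 1.33 ± 0.106 CPM per kb. The remaining genes were low, Npl at 0.493 ± 0.0461, Chil1 at 0.147 ± 0.0611, Ikbke at 0.0805 ± 0.0148 and Ctse at 0.0425 ± 0.016 CPM per kb. In this order, Aldh9a1 and Fmo1 overlapped across the 4 libraries, as did Chil1 and Ikbke, and the other neighbours did not. The 4 low genes were the ones with higher levels in Atf3-/-FS6KD, but 3 of them, Chil1, Ctse and Ikbke, passed the filter of 1 CPM only through Atf3-/-FS6KD libraries, so the filter fixed their direction.

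Npl encodes N-acetylneuraminate pyruvate lyase, which breaks down sialic acid, and its level separated the genotypes. In Atf3+/+FS6KD replicates 1 to 4 it was 1.41, 1.29, 1.58 and 1.56 CPM, from 59, 42, 185 and 207 estimated counts. In Atf3-/-FS6KD it was 5.0, 3.02, 3.90 and 3.24 CPM, from 177, 115, 458 and 406 estimated counts. All 4 Atf3-/-FS6KD hearts were above all 4 Atf3+/+FS6KD hearts, with a log2 fold change of 1.36 (SE 0.18). After AAV injection Npl was 2.48, 2.43 and 2.11 CPM under the shCtrl label and 1.60, 2.82 and 1.63 CPM under the shAtf3 label. These groups overlapped, since replicate 2 labelled shAtf3 was the highest of all 6 (log2 fold change -0.22, SE 0.23, edgeR adjusted p = 0.748).

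Aldh9a1 encodes an aldehyde dehydrogenase of carnitine synthesis, the pathway that supplies the carrier of fatty acids into mitochondria. It was 27.1, 22.1, 28.5 and 23.6 CPM in Atf3+/+FS6KD and 13.2, 15.3, 15.5 and 17.1 CPM in Atf3-/-FS6KD. The groups did not overlap, with 22.1 against 17.1 CPM at the nearest pair, and Atf3-/-FS6KD held 60.4% of the control mean (log2 fold change -0.73, SE 0.10). Its AAV levels were 20.9, 23.5 and 25.2 CPM under the shCtrl label and 26.3, 18.3 and 22.4 CPM under the shAtf3 label. The libraries labelled shAtf3 held both the highest and the lowest value, and the log2 fold change of -0.06 (SE 0.13, edgeR adjusted p = 0.903) turned sign without replicate 2 labelled shAtf3 (0.08) or replicate 3 labelled shCtrl (0.01).

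Fmo1 encodes a flavin-containing monooxygenase, an enzyme that oxidises nitrogen and sulfur groups of small molecules. It was 33.6, 49.8, 35.0 and 36.4 CPM in Atf3+/+FS6KD and 22.6, 26.5, 24.9 and 28.0 CPM in Atf3-/-FS6KD. Replicate 2 of Atf3+/+FS6KD stood above the rest of its group, and the groups did not overlap (log2 fold change -0.60, SE 0.13). With the virus, Fmo1 was 36.4, 41.9 and 45.3 CPM under the shCtrl label and 45.5, 50 and 46.5 CPM under the shAtf3 label. Here every library labelled shAtf3 was above every library labelled shCtrl, by a margin of 45.5 over 45.3 CPM at the nearest pair (log2 fold change 0.20, SE 0.09, unadjusted p = 0.0453, edgeR adjusted p = 0.379). Fmo1 values were thus lower in Atf3-/-FS6KD and higher in the hearts labelled shAtf3, but the latter difference did not pass the adjusted threshold.

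Fam20b encodes a kinase that phosphorylates xylose in the linker by which glycosaminoglycan chains are attached to proteoglycans. It was 164.1, 170.1, 158.5 and 158.3 CPM in Atf3+/+FS6KD and 79.4, 116.6, 122.3 and 116.0 CPM in Atf3-/-FS6KD. The groups did not overlap, and replicate 1 of Atf3-/-FS6KD stood far below the other 3 of its group (log2 fold change with all libraries -0.58, SE 0.12). Across the AAV libraries Fam20b was 166.9, 177.1 and 170.7 CPM under the shCtrl label and 170.9, 181.7 and 179.3 CPM under the shAtf3 label. These groups overlapped, with a log2 fold change of 0.05 (SE 0.06, edgeR adjusted p = 0.795).

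Klhl20, a substrate adaptor of cullin 3 ubiquitin ligases, and Zbtb37, a zinc finger protein with a BTB domain, are the pair of genes that lay 85.5 kb apart. Klhl20 was 24.1, 20.1, 21.7 and 22.3 CPM in Atf3+/+FS6KD and 15.2, 16.2, 16.8 and 17.6 CPM in Atf3-/-FS6KD (log2 fold change -0.42, SE 0.08). Zbtb37 was 26.5, 22.9, 26.8 and 23.6 CPM in Atf3+/+FS6KD and 10.6, 15.1, 17.6 and 18.1 CPM in Atf3-/-FS6KD (log2 fold change -0.69, SE 0.15). Both genes were lower in every Atf3-/-FS6KD heart, and in both the lowest heart was replicate 1. Among the AAV libraries, Klhl20 was 21.1, 21.5 and 19.4 CPM under the shCtrl label and 19.1, 21.0 and 19.7 CPM under the shAtf3 label (log2 fold change -0.05, SE 0.07, edgeR adjusted p = 0.826). Zbtb37 was 18.9, 23.0 and 21.0 CPM under the shCtrl label and 23.8, 23.1 and 22.2 CPM under the shAtf3 label (log2 fold change 0.14, SE 0.08, edgeR adjusted p = 0.545). Both genes overlapped between the AAV groups. Zbtb37 shares 2942 exonic bases, 15.6% of its length, with Serpinc1 on the other strand, but Serpinc1 did not exceed 0.116 CPM before TMM scaling in any library.

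Ppp1r12b encodes a myosin-targeting subunit of myosin phosphatase and was by far the most abundant of the 10. It was 539.6, 544.1, 545.7 and 522.9 CPM in Atf3+/+FS6KD and 406.2, 468.7, 439.5 and 467.1 CPM in Atf3-/-FS6KD. The groups were apart although Atf3-/-FS6KD kept 82.8% of the control mean, the smallest difference among the 10 (log2 fold change -0.27, SE 0.06). The AAV hearts had 470.7, 533.8 and 514.3 CPM under the shCtrl label and 506.1, 517.2 and 546.6 CPM under the shAtf3 label (log2 fold change 0.05, SE 0.07, edgeR adjusted p = 0.823). Replicate 1 labelled shCtrl was the lowest of the 6, and without it the log2 fold change was -0.00232.

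Ctse encodes cathepsin E, an aspartic protease, and was close to undetected except in Atf3-/-FS6KD hearts. It had 7, 4, 8 and 24 estimated counts in Atf3+/+FS6KD and 73, 10, 125 and 156 in Atf3-/-FS6KD. That made 0.167, 0.123, 0.0684 and 0.181 CPM against 2.06, 0.262, 1.06 and 1.25 CPM, with a log2 fold change of 3.10 (SE 0.58). Replicate 2 of Atf3-/-FS6KD was nearer to Atf3+/+FS6KD than to the rest of its own group, so the size of this difference rests on the other 3 hearts. Ctse in the AAV hearts had 5, 1 and 4 estimated counts under the shCtrl label and 3, 1 and 3 in those labelled shAtf3. It failed the filter of 1 CPM in at least 1 library there, and none of the 6 libraries reached the 10 to 156 counts of the Atf3-/-FS6KD hearts. At such counts the comparison was imprecise (without the filter log2 fold change -0.16, SE 0.81, edgeR adjusted p = 0.966).

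Chil1 encodes a secreted chitinase-like protein that binds chitin without cutting it. It was 0.525, 0.246, 0.590 and 0.286 CPM in Atf3+/+FS6KD and 2.77, 1.70, 4.25 and 1.13 CPM in Atf3-/-FS6KD, from 8 to 69 and 65 to 499 estimated counts. The genotypes did not overlap, and Atf3-/-FS6KD replicate 3 was the highest heart (log2 fold change 2.56, SE 0.46). Virus-injected hearts had Chil1 at 1.54, 1.18 and 0.313 CPM under the shCtrl label and 0.266, 0.672 and 0.238 CPM under the shAtf3 label. Its log2 fold change of -1.37 (SE 0.58, unadjusted p = 0.0432, edgeR adjusted p = 0.375) was the largest of the 9 tested genes there, and the groups overlapped, since replicate 2 labelled shAtf3 was above replicate 3 labelled shCtrl.

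Ikbke encodes IKK epsilon, a kinase of innate immune signalling. It was 0.573, 0.830, 0.846 and 0.656 CPM in Atf3+/+FS6KD and 1.69, 1.31, 1.36 and 1.12 CPM in Atf3-/-FS6KD, from 24 to 99 and 49.5 to 160 estimated counts. The groups were apart (log2 fold change 0.90, SE 0.20). Ikbke in the AAV hearts was 1.04, 1.60 and 1.10 CPM under the shCtrl label and 1.30, 0.768 and 1.15 CPM under the shAtf3 label. They overlapped (log2 fold change -0.21, SE 0.26, edgeR adjusted p = 0.802), and the sign turned without replicate 2 labelled shCtrl (0.02).

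**Figure D1:**
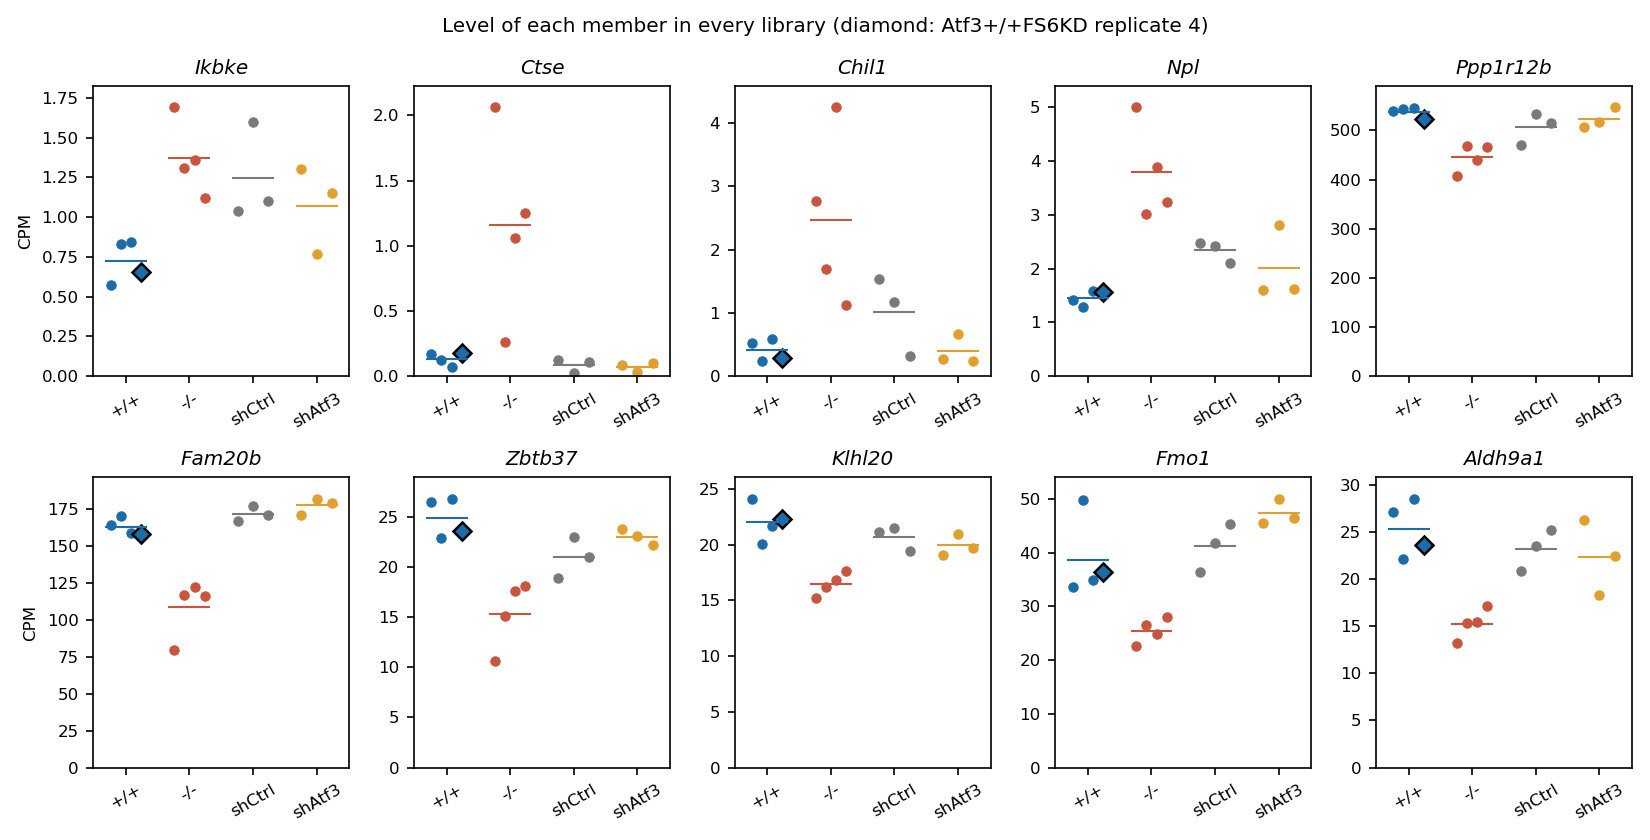
CPM after TMM scaling (y axis, from 0; before TMM scaling for Ctse in the AAV libraries, where it failed the filter) of each of the 10 genes in every library, by group on the x axis, with 1 point per heart, a line at the group mean and a diamond for Atf3+/+FS6KD replicate 4. In every panel the diamond lies with the other Atf3+/+FS6KD points, and the 4 Atf3-/-FS6KD points lie on 1 side of them, while the shCtrl and shAtf3 points overlap except for Fmo1, whose nearest points are 45.3 and 45.5 CPM.

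Counted over the 10 genes, the genotypes did not overlap for 10 of 10, with 6 lower and 4 higher in Atf3-/-FS6KD. Among all 15592 genes tested, 5.71% did not overlap, 3.08% higher and 2.63% lower. The low p-values that chose the genes came from the same differences, so this count was fixed by the choice. The direction within any subset of the libraries is fixed by the separation of all 8, but the size differed between the shallower replicates 1 and 2 and the deeper replicates 3 and 4, with log2 fold changes of 1.57 and 1.18 for Npl, -0.78 and -0.68 for Aldh9a1, -0.94 and -0.50 for Zbtb37 and -0.77 and -0.41 for Fam20b. In Ctse (2.95 and 3.18) and Chil1 (2.50 and 2.62) the deeper replicates had the larger value. How the choosing p-values stood after adjustment depended on the tool. In edgeR 0 genes of all tested passed an adjusted p of 0.05 (0% of genes), although 1575 (10.1%) had an unadjusted p below 0.05, and the 10 genes had adjusted values between 0.149 and 0.277. limma-trend called 0 genes, with 1566 at an unadjusted p below 0.05. DESeq2 called 208 genes (1.33%), the 10 among them, which restates their choice by low p-values in the same comparison.

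None of the genes was called in the AAV comparison. In edgeR 0 of the 9 genes tested had an adjusted p below 0.05, against 82 of 15225 genes (0.539%), and 2 of 9, Fmo1 and Chil1, had an unadjusted p below 0.05, against 12.7% of all genes. DESeq2 called 0 of the 9 and 308 genes in all (2.02%), with 2 of the 9 (Fmo1 and Chil1) at an unadjusted p below 0.05. limma-trend called 0 of the 9 and 85 genes in all (0.558%), with 1 of the 9 (Fmo1) at an unadjusted p below 0.05. Only Fmo1 of the 9 did not overlap between the groups, in the higher direction, against 18.4% of all genes (8.48% higher and 9.94% lower). With libraries scaled by their total counts alone, 0 of the 9 were without overlap. Of the 9, Npl, Chil1 and Ikbke had a negative sign where the knockout value was positive, Fmo1, Fam20b, Zbtb37 and Ppp1r12b had a positive sign where the knockout value was negative, and Aldh9a1 and Klhl20 were negative in both. With the AAV labels exchanged, the first 7 would share the sign of the knockout value and the last 2 would not, and none of the 9 differences passed the threshold. Since 3 hearts were compared with 3, the intervals were wide for the low genes, and a value that missed the threshold does not show that a gene kept its level.

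**Figure D2:**
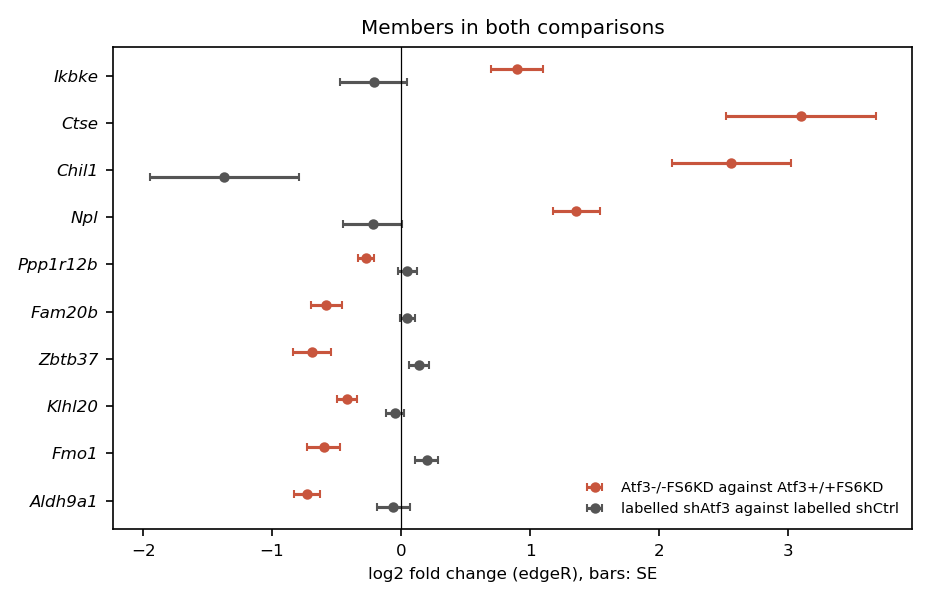
Log2 fold changes (x axis, edgeR) of the 10 genes (y axis) in Atf3-/-FS6KD against Atf3+/+FS6KD (red) and in libraries labelled shAtf3 against those labelled shCtrl (grey), with bars of 1 SE. The knockout points run from -0.73 to 3.10, and the 9 grey points from -1.37 to 0.20, with no grey point for Ctse, which failed the filter of 1 CPM.

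The levels of the 6 AAV hearts were also set beside the range of the 4 Atf3-/-FS6KD hearts, a side by side reading of tables that were normalised separately. For 8 of the 10 genes all 6 AAV hearts lay on the Atf3+/+FS6KD side of every Atf3-/-FS6KD heart, whatever hairpin they were labelled with. The Atf3-/-FS6KD range is that of genes chosen for lying apart there, and the AAV hearts within the Atf3+/+FS6KD range itself were fewer. There were 5 of 6 such hearts for Fmo1, 4 each for Aldh9a1 and, before TMM scaling, Ctse, 3 each for Klhl20 and Zbtb37, 2 for Chil1, 1 each for Fam20b, Ppp1r12b and Ikbke and 0 for Npl. Fam20b, at 166.9 to 181.7 CPM in the AAV hearts, lay above the highest Atf3-/-FS6KD heart at 122.3 CPM in all 6. Npl, at 1.60 to 2.82 CPM, stayed below the lowest Atf3-/-FS6KD heart at 3.02 CPM but above the highest Atf3+/+FS6KD heart at 1.58 CPM. For Chil1 4 of 6 and for Ikbke 3 of 6 AAV hearts lay on the Atf3+/+FS6KD side.

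Atf3+/+FS6KD replicate 4 was on the side of its own group for all 10 genes. With the mean log2 CPM of the other 3 Atf3+/+FS6KD hearts set to 0% and the mean of Atf3-/-FS6KD to 100%, this library stood between -23.3% and 20.6% over the 10 genes, with a median of 11.5%. The medians of Atf3+/+FS6KD replicates 1 to 3 on the same scale were -3.7%, -5.2% and 7.0%. Replicate 4 was the Atf3+/+FS6KD library nearest to Atf3-/-FS6KD for 3 of 10 genes (Ctse, Fam20b and Ppp1r12b), as were replicates 2 and 3 for 3 genes each, and for 25.4% of the 890 genes that did not overlap. Without it the log2 fold changes of the 10 genes stayed close, for example 1.39 for Npl, -0.76 for Aldh9a1 and 3.40 for Ctse.

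**Figure D3:**
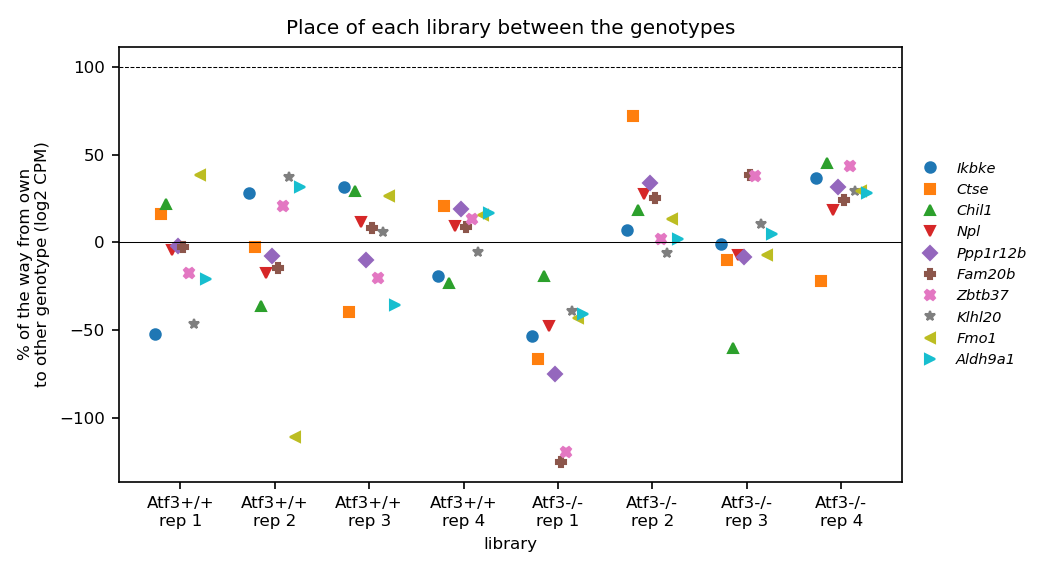
Place of each knockout-experiment library (x axis) between the genotypes for each of the 10 genes, in % of the way from the mean of the other libraries of its own genotype to the mean of the other genotype on the log2 CPM scale (y axis; solid line 0%, dashed line 100%). Atf3+/+FS6KD replicate 4 lies between -23.3% and 20.6%, and Atf3-/-FS6KD replicate 1 lies below 0% for all 10 genes, down to -125.0%.

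The place of that library among the other genes near Atf3 was described by counting genes whose genotypes overlapped with all libraries but not once a given library was left out. Within 60 Mb of Atf3, leaving out replicate 4 parted 28 of 338 such genes (8.28%), against 6.21% for replicate 3, 5.62% for replicate 2 and 4.44% for replicate 1 of Atf3+/+FS6KD and 3.25% to 4.44% for the Atf3-/-FS6KD libraries. The stretch was then divided at 168 Mb, just past Aldh9a1, a boundary set after the values were seen, so the following shares are a description only. From 168 to 196 Mb, which includes Atf3, leaving out Atf3+/+FS6KD replicate 4 parted 22 of 174 genes (12.6%), and leaving out any other single library parted between 0.575% and 8.05%. From 131 to 168 Mb, where the 10 genes lie, leaving out replicate 4 parted 6 of 166 genes (3.61%), close to the 505 of 14702 genes (3.43%) over the whole genome. Cnih4, 10 Mb from Atf3, was 40.4 CPM in replicate 4, 53.5 to 55.6 CPM in the other Atf3+/+FS6KD hearts and 27 to 41.8 CPM in Atf3-/-FS6KD. The predicted gene Gm31640, 0.042 Mb from Atf3, was 0.573 CPM in replicate 4, at most 0.00855 CPM in the other Atf3+/+FS6KD hearts and 0.519 to 2.03 CPM in Atf3-/-FS6KD. Both genes were named after their values were seen and are 2 of the 28, so that replicate 4 had to reach the range of the Atf3-/-FS6KD hearts in them, and the 10 genes were picked by low p-values with this library in the comparison, so that its place in either set of genes is bound up with the choice.

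**Figure D4:**
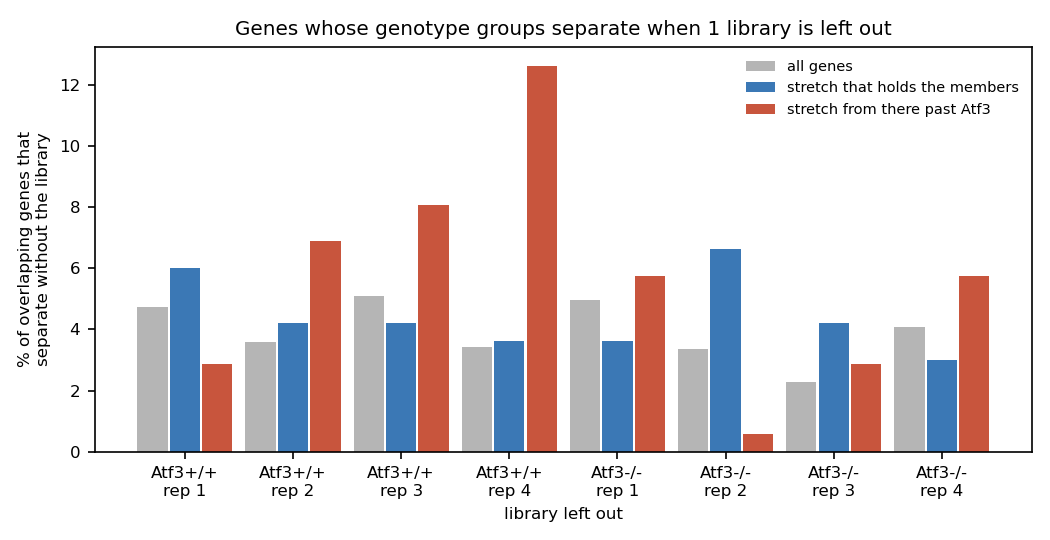
Share of genes with overlapping genotypes that no longer overlap once 1 library is left out (y axis, in %, bars from 0), for each library of the knockout experiment (x axis) and for all genes (grey), the stretch of chromosome 1 that holds the 10 genes (blue) and the stretch from there past Atf3 (red). The red bar of Atf3+/+FS6KD replicate 4 reaches 12.6%, while its blue and grey bars are 3.61% and 3.43%.

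Among the Atf3-/-FS6KD hearts, replicate 1 was the farthest from Atf3+/+FS6KD for 9 of 10 genes, including all 6 lower ones, and replicate 3 was so for Chil1. Replicate 1 was the farthest for 20.8% of the 890 genes that did not overlap. Its median place was -50.4% on the scale above, beyond the mean of its own group, against 16.1%, -3.8% and 29.0% for replicates 2 to 4. Replicate 2 was the nearest to Atf3+/+FS6KD for Ctse, at 71.7% of the way.

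The immediate neighbours of the 10 genes were described next. Of the 20 nearest named genes tested on either side, 2 did not overlap in the higher direction and 0 in the lower (3.08% and 2.63% of all genes), where the median was 0.02 on the log2 scale. These 2 were Cenpl, between Zbtb37 and Klhl20 (log2 fold change 0.46), and Tmco1, beside Aldh9a1 (0.17), so both stood opposite to the lower member genes next to them. Fmo2, a flavin monooxygenase gene 44.8 kb from Fmo1, had means of 44.5 and 29.1 CPM (log2 fold change -0.61), with overlap. Of the 20 neighbours, 2 in the AAV comparison did not overlap in the higher and 5 in the lower direction, with a median of -0.04, where 8.48% and 9.94% of all genes did not.

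Within 60 Mb of Atf3, a window that is cut short by the end of the chromosome and holds 372 tested genes below Atf3 and 28 above it, 63 of 401 genes (15.7%) did not overlap between the genotypes, 29 higher and 34 lower, against 5.44% of all other genes. By 10 Mb bins the share was 12.8% of 86 genes from 130 to 140 Mb, a bin that reaches past the window, 22.8% from 150 to 160 Mb, 32.4% from 160 to 170 Mb, 11% from 170 to 180 Mb, 7.14% from 180 to 190 Mb and 8.11% from 190 Mb on, and the 9 genes from 140 to 150 Mb had 0%. The highest bin was that of Zbtb37, Klhl20, Fmo1 and Aldh9a1, and it was also the highest with any 1 library left out (33.8% to 39.4%). The shares beyond it varied with the library left out. From 170 to 180 Mb the share was 26.4% without Atf3+/+FS6KD replicate 4, 19.8% without replicate 2 and 17.6% without replicate 3 of that group, and 18.7% without Atf3-/-FS6KD replicate 1. From 180 to 190 Mb it was 17.9% when either replicate 3 or replicate 4 of Atf3+/+FS6KD was dropped, and 12.5% when replicate 1, 3 or 4 of Atf3-/-FS6KD was. From 190 Mb on it was 16.2% when either replicate 2 of Atf3+/+FS6KD or replicate 4 of Atf3-/-FS6KD was dropped, and 13.5% when replicate 3 or 4 of Atf3+/+FS6KD was. With any other single library left out, the share was 12.1% to 13.2% from 170 to 180 Mb. It was then 7.14% to 10.7% from 180 to 190 Mb and 8.11% to 10.8% from 190 Mb on. Fewer libraries make separation easier in every bin. Over all genes the share rose from 5.71% with all libraries to between 7.85% and 10.5% with 1 left out. The bin shares with 1 library left out were computed after the others were seen. The same stretch in the AAV comparison had 17% of 395 genes without overlap, against 18.5% elsewhere. The 10 genes are part of these counts.

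**Figure D5:**
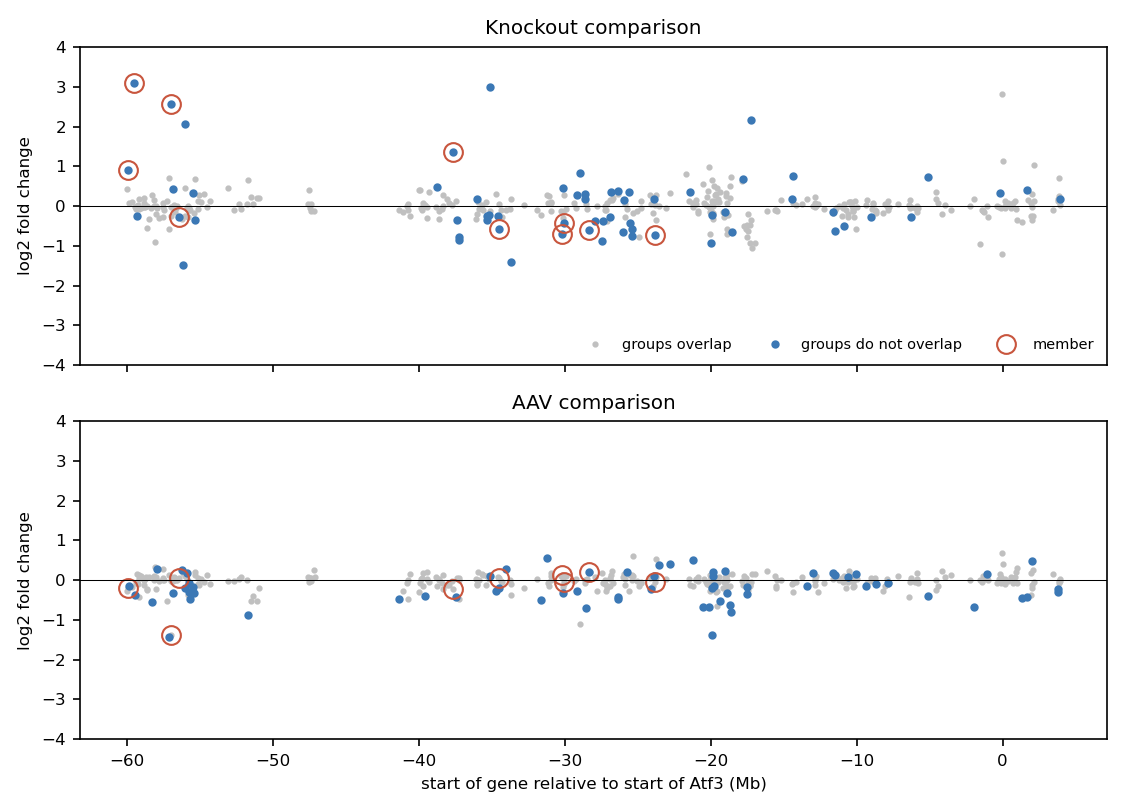
Log2 fold change (y axis, edgeR) of the tested genes of chromosome 1 within 60 Mb of Atf3 by the distance of their start from that of Atf3 in Mb (x axis, negative at lower coordinates), in the knockout comparison (top) and the AAV comparison (bottom), with genes whose groups overlap in grey, those whose groups do not in blue and the 10 genes ringed. In the top panel 63 of 401 points are blue and every ringed point lies 23.8 Mb or more to the left of Atf3, and in the bottom panel 8 of the 9 ringed points lie between -0.22 and 0.20.

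The genes most like each of the 10 were found by Pearson's correlation of log2 CPM over the 8 libraries of the knockout experiment, which all share the genotype contrast and so are given as a description. Klhl20 and Aldh9a1 were each other's closest gene (r = 0.968). The closest gene was Prrx1 for Ppp1r12b (r = 0.978), Sft2d2 for Fam20b (r = 0.990) and Creg1 for Zbtb37 (r = 0.973), all 3 on chromosome 1. Of the 20 closest genes, 11 lay within 60 Mb of Atf3 for Zbtb37, 10 each for Ppp1r12b and Fam20b, 9 for Aldh9a1 and 8 for Klhl20, where 2.53% of the 13383 genes considered and 7.08% of the 890 genes without overlap lay in that stretch. These counts include 2 to 4 of the 10 genes themselves, and genes chosen for their genotype difference must correlate most with others that share it, so the counts are no independent result. Ikbke had 3 such genes, and Ctse, Chil1, Npl and Fmo1 had 1 each. Their closest genes lay on other chromosomes, Trmt2a for Ikbke (r = 0.966), Armcx2 for Chil1 (r = 0.976), E4f1 for Npl (r = 0.979) and Sbf2 for Fmo1 (r = 0.980), except that Ctse was closest to a copy of Sox13 listed under its own row (r = 0.965). Sox13 itself starts 57.8 Mb from Atf3, but the copy has no chromosome assigned and is not in the count for Ctse.

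Partner genes of the same pathways, which lie elsewhere in the genome for the most part, were counted in both comparisons. Of 14 sialic acid genes, 1 did not overlap between the genotypes, Renbp (3.79 to 5.32 CPM, log2 fold change 0.49), and the median of the list was 0.00 against 0.001 over all genes. Of 11 carnitine genes tested, 1 was lower, Tmlhe, which starts carnitine synthesis (18.3 to 16.1 CPM, log2 fold change -0.18), with a median of -0.06. Of 13 linker synthesis genes 1 was higher (Csgalnact2, 0.14), of 11 cathepsins 0, of 17 cullin 3 ligase genes 0 and of the 2 chitinase family genes tested 0. Of 12 IKK-related genes 1 was higher (Nfkb1, 0.13, median 0.08), and of 16 myosin phosphatase genes 1 was higher (Ppp1r14a, an inhibitor of the phosphatase, 0.46). Of 15 other aldehyde dehydrogenases Aldh1a3 was higher (0.57) and Aldh5a1 lower (-0.26), and of 13 ZBTB genes Zbtb46 was higher and Zbtb20 lower. Thus 0 to 2 genes of each list did not overlap, beside 5.71% of all genes.

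In the AAV experiment, 1 gene of these lists passed an adjusted p of 0.05, the collagen-degrading cathepsin Ctsk (10.4 to 6.59 CPM, log2 fold change -0.65, edgeR adjusted p = 0.0461), beside 0.539% of all genes. By overlap alone, where 8.48% of all genes were without overlap in the higher and 9.94% in the lower direction, the lists ran both ways. None was higher and 5 were lower of 11 cathepsins, 2 were lower of 16 myosin phosphatase genes, 1 was lower of 14 sialic acid genes and 1 was lower of 13 linker synthesis genes. In the other direction 4 of 17 cullin 3 ligase genes, 2 of 13 ZBTB genes and 2 of 11 carnitine genes (median 0.12) were higher and none lower. The aldehyde dehydrogenases had 2 of 15 higher and 1 lower, the IKK-related genes 1 of 12 higher and 2 lower, and the flavin monooxygenases and chitinase family 0 of 2 each. The median over all genes was -0.003.

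Markers of other cell types moved in part with the groups. Whole hearts were sequenced, so a lower share of a cell type and less RNA per cell cannot be told apart. All 7 macrophage markers had a positive log2 fold change in Atf3-/-FS6KD (median 0.27, 0 of 7 without overlap), and their summed level before TMM scaling was 267.7 to 321.7 CPM in Atf3+/+FS6KD and 300.8 to 432.6 CPM in Atf3-/-FS6KD. All 6 fibroblast markers also had a positive log2 fold change, and 2 did not overlap, Col1a1 and Pdgfra, both higher (median 0.34, summed 1346 to 1687 CPM and 1570 to 2262 CPM). Over all genes 3.08% did not overlap between the genotypes in the higher and 2.63% in the lower direction. Of 7 cardiomyocyte markers Tnnt2, itself within 60 Mb of Atf3, was lower without overlap (log2 fold change -0.36). Actc1 alone of the 7 had a positive log2 fold change (0.47, SE 0.12), and its groups overlapped. The median of the 7 was -0.15 (summed 56050 to 67291 CPM and 49925 to 65426 CPM). Endothelial markers had 0 of 5 without overlap, neutrophil markers 0 of 3, smooth muscle markers 0 of 4, atrial markers 0 of 2, erythrocyte markers 0 of 3 and the 1 lymphocyte marker tested 0. In the AAV comparison, where 9.94% of all genes were without overlap in the lower direction, 8.48% in the higher and 0.539% were called, 5 of 6 fibroblast markers were lower without overlap (3 called, median -0.60) and so were 3 of 7 macrophage markers (0 called, median -0.22). Of 7 cardiomyocyte markers 1, Actc1, was higher without overlap (0 called, median 0.13). The endothelial (median 0.03), neutrophil (0.55), atrial (-0.70), smooth muscle (-0.21) and erythrocyte (0.04) markers had 0 without overlap and 0 called, and no lymphocyte marker passed the filter. The part of these cell types in the levels of Npl, Chil1, Ctse and Ikbke was not tested.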

How the data were processed

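Whole-heart RNA of female FS6KD mice was sequenced from 8 libraries of the knockout experiment and 6 of the AAV experiment. Per the submitters' processing notes, reads were counted with featureCounts 2.0.0 on GRCm38.p6. The aligner and the use of strand in counting are not given in the sources used here, nor are the sequencing and mapping steps of the AAV experiment. As deposited, the authors' values are estimated counts, 1 for each gene in each library, with no normalization. In each library 19.3% to 24.4% of them had a decimal part (exact comparison), as did some values of 5 of the 10 genes, and they were rounded before testing, although whole counts had been assumed when the tests were chosen.

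Libraries were grouped by the GEO labels. Genes above 1 CPM in at least 1 library were tested two-sided by the quasi-likelihood method of edgeR 4.0.16 (R 4.3.3) after TMM scaling, with Benjamini-Hochberg adjustment over all genes tested and a threshold of 0.05, using the groups of 1 experiment with no covariate. The scripts were tested on simulated data. SE is the log2 fold change divided by the square root of F. Log2 CPM used a prior count of 2. Groups were said not to overlap where every library of one lay above every library of the other. DESeq2 1.42.0 and limma 3.58.1 (limma-trend) served as alternatives, beside other scalings and filters, a depth batch term, a replicate block, merged copies and each library left out. No pair of replicate libraries agreed within sampling noise (chi-square per gene of at least 7.93), and 0 columns of samples were left out.

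The 10 genes, the partner lists and the marker lists were chosen with earlier results of these data known, and the lists serve as description. Named besides the 10 were Atf3, Ndufs6, the nearest tested named gene on either side of each, the gene with the highest correlation among genes above a mean log2 CPM of 1, and members of the partner and marker lists, plus the few genes said to be named after their values were seen. Positions came from RefSeq GRCm38.p6, to whose chromosomes 39987 of 42396 listed symbols matched, and exon lengths and overlaps from GENCODE. None of the 10 has a copy listed on an alternate locus. Counting error in the low genes is limited by the depth given above, and the p-values set a difference between groups against the spread between these hearts.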

Additional observations from a re-analysis of the deposited data

Results flagged for a closer look

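Of 22 groups of 4 libraries examined, 2 held a library far from the others by Dixon's criterion, where chance gives about 1 in 20. Fam20b in Atf3-/-FS6KD replicate 1 was 79.4 CPM, with the other 3 hearts of the group between 116.0 and 122.3 CPM, and without this library its log2 fold change was -0.46. Atf3 in Atf3+/+FS6KD replicate 1 was 25.7 CPM, with the other 3 hearts of the group between 6.35 and 6.90 CPM, so this heart lay within the range of the Atf3-/-FS6KD hearts for Atf3.

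The values of Fmo1 ran in opposite directions in the experiments as labelled, with every Atf3-/-FS6KD heart below every Atf3+/+FS6KD heart and every heart labelled shAtf3 above every heart labelled shCtrl (log2 fold change 0.20). The AAV difference did not pass the adjusted threshold (edgeR adjusted p = 0.379), parted the groups by 45.5 against 45.3 CPM, lost the separation with libraries scaled by total count alone, and would turn if the AAV labels were exchanged. The difference between the experiments was not tested, since Fmo1 was picked for its knockout value.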

How the results depend on the processing

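In the knockout comparison the values had chosen the 10 genes, and most alternatives left out libraries, which cannot undo a full separation, so their direction there is no sign of stability. Over 19 alternatives the log2 fold change ran from 1.18 to 1.57 for Npl, 2.64 to 3.41 for Ctse and -0.77 to -0.41 for Fam20b. In the AAV comparison 0 of the 9 genes were called under all 14 alternatives. Their adjusted p reached down to 0.059 for Chil1 and 0.160 for Fmo1. The number of the 9 at an unadjusted p below 0.05 moved under 6 of the 14 alternatives and stayed the same under 8. The number of genes without overlap there was 0 with libraries scaled by total count alone and 1 to 3 with 1 library left out, where fewer libraries make separation easier. Over all genes, the 82 called in the AAV comparison became 308 with DESeq2, 304 without the filter, 20 with the replicate block and 1 to 285 with 1 library left out (285 without shCtrl replicate 3, 1 without shAtf3 replicate 2); the cause was not tested. With 1 library left out, the AAV log2 fold change ran from -0.19 to 0.08 for Aldh9a1 (positive without shAtf3 replicate 2, or, at 0.01, shCtrl replicate 3), from -0.00232 (without shCtrl replicate 1) to 0.09 for Ppp1r12b and from -0.38 to 0.02 (without shCtrl replicate 2) for Ikbke. Over the 14 alternatives it ran from -0.53 to -0.07 for Npl and from -1.99 to -0.93 for Chil1, with no change of sign. Same-numbered libraries correlated at 0.01 to 0.14 in the knockout and 0.00 to 0.15 in the AAV experiment. These low values gave no clear sign of pairing by replicate number but cannot exclude it. Replicates 1 and 2 of the knockout experiment and replicate 2 of the AAV experiment correlated best with their own number, and the others did not. With the replicate block the log2 fold change was 1.34 for Npl and -0.72 for Aldh9a1 in the knockout comparison, and the count of called genes among the 9 in the AAV comparison stayed 0. Scaling by library size alone shifted the median of all genes by 0.062 in the knockout and -0.043 in the AAV comparison. Ctse had at most 5 estimated counts in any AAV library, which limits its precision there.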
